A study of Mus musculus with 12 samples.

Results

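The NRF2 pathway is described here through 10 genes of the mouse kidney count table: the regulators Nfe2l2 (which encodes NRF2), Keap1 and Sqstm1, and the target genes Nqo1, Srxn1, Txnrd1, Prdx1, Osgin1, G6pdx and Pir. They were taken by name from a list of the pathway, and all 10 were found among the 55487 genes of the table and passed the filter on low counts in every comparison. RNA-seq was done on kidney cortex, with 12 libraries in 4 groups of 3. Control mice (labelled WT, and ALR flox/flox according to the methods of the study) and KO mice (labelled ALR knockdown, ALR flox/flox with Ggt1-Cre) were sham treated (Control, KO) or subjected to ischemia/reperfusion (Control-IR, KO-IR), with 22 min of bilateral renal ischemia and 24 h of reperfusion. All mice were on a C57BL/6 background and 6 to 8 weeks old. ALR, encoded by Gfer, is a sulfhydryl oxidase of the mitochondrial intermembrane space, and Ggt1-Cre acts in proximal tubule cells, so cells of other types in the cortex of KO mice kept the floxed gene. Libraries are numbered as in the table (Control 1, 2 and 3, KO 1, 2 and 4, Control-IR 1, 2 and 4, KO-IR 2, 3 and 4). No label names a library Control 3, and only the name of its column puts it in Control.

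NRF2 is a transcription factor that is made continuously and, in unstressed cells, held by KEAP1, which passes it to a CUL3 ubiquitin ligase for degradation. Electrophiles and oxidants modify cysteines of KEAP1, newly made NRF2 then escapes, enters the nucleus and binds antioxidant response elements together with a small MAF protein. Its targets reduce quinones, regenerate thioredoxin and peroxiredoxins, supply NADPH and glutathione, and handle heme and iron. In the kidney the pathway is best known for limiting oxidative damage to the tubules in ischemia and toxic injury. Because NRF2 is controlled mainly through the stability of the protein, its mRNA and its activity need not move together, and neither NRF2 protein nor its location was measured here.

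The 12 libraries held between 12165089 and 23123693 counts. Gfer, the targeted gene, was not lower in the KO libraries: it stood at 12.7, 11.4 and 14.4 CPM (counts scaled to the TMM-normalized library size) in Control and at 9.96, 17.1 and 15.0 CPM in KO. In Control-IR it stood at 15.3, 19.98 and 17.6 CPM and in KO-IR at 21.6, 22.8 and 21.6 CPM. The loxP sites flank only a piece of the gene, and counts over the whole gene and the whole cortex can miss such a deletion in 1 cell type, so these counts do not check the KO labels. Markers of the proximal tubule were abundant in all groups, as the labelled tissue has them. Control 1 and 2 carried the female transcript Xist (22402 and 19755 counts) and no count of the Y-linked Ddx3y, whereas the other 10 libraries carried Ddx3y (1079 to 2469 counts). Sex therefore varied within Control alone, and each comparison with Control sets 2 Xist-carrying libraries and Control 3 against libraries without Xist. Nothing states that the libraries of a group came from separate litters or days, so p-values measure the spread between these 12 samples.

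The antioxidant response element has a core that is often written TGACNNNGC. This core was searched, on both strands (GCNNNGTCA on the other), in windows from 250 bases before to 50 bases after the RefSeq starts of the genes (GRCm38.p6). It lay in 6 of the 12 windows of the 10 genes, in 15 of 55 windows of the other pathway genes (27.3%) and in 4071 of all 32851 windows (12.4%). The stretch around 1 match of each gene that had any is shown because these are the letters through which NRF2 is known to act on its targets. Each stretch is written 5′ to 3′ on the strand of its gene, with the core in capitals.
Nfe2l2, chr2:75704885-75704913, minus strand, 240 bases before the start: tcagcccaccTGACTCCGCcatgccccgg
Pir, chrX:164269207-164269235, plus strand, 214 bases before the start: gcatagagagGCTGAGTCActcccccaaa
Prdx1, chr4:116685456-116685484, plus strand, 133 bases before the start: cagggaaagcGCTGAGTCAtcccccgtag
Txnrd1, chr10:82859104-82859132, plus strand, 92 bases before the start: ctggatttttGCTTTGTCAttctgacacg
G6pdx, chrX:74428919-74428947, minus strand, 57 bases before the start and within an exon of the GENCODE annotation: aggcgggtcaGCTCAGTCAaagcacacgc
Srxn1, chr2:152105542-152105570, plus strand, 28 bases after the start, in an exon: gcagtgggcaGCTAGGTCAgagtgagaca
A second match in Pir lay 19 bases after its start. The Txnrd1 match lay in 1 of its 3 windows, each of which belongs to a different start of the gene. The windows of Nqo1, Keap1, Sqstm1 and Osgin1 held no match, which says only that these letters are not in that stretch. A match is a description of the sequence and not evidence that NRF2 was bound there.

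Per kilobase of exon, Prdx1 and Sqstm1 were the most abundant of the 10 mRNAs in every group, with 266 and 114 CPM per kilobase on average in Control. Nqo1 (24.7), Nfe2l2 (24.6), Srxn1 (20.4), Txnrd1 (19.2) and Osgin1 (16.1 CPM per kilobase) formed a middle tier there. The range of Nqo1 (18.7 to 30.4) covered those of Nfe2l2, Srxn1 and Txnrd1, so its place among them is not firm. G6pdx and Keap1, which overlapped, followed at 8.76 and 8.06, and Pir was far below at 0.153 CPM per kilobase. Between Control and KO-IR, Srxn1 and Nfe2l2 each moved by 2 ranks, Nfe2l2 from 4 to 6. Srxn1, rank 5 in Control, had rank 3 at 263 CPM per kilobase (range 235 to 299), a range that overlapped that of Sqstm1 (296 to 377) and lay above that of Nqo1 (110 to 138). Keap1 and Pir were the 2 scarcest, in that order, in all 4 groups.

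**Figure D1:**
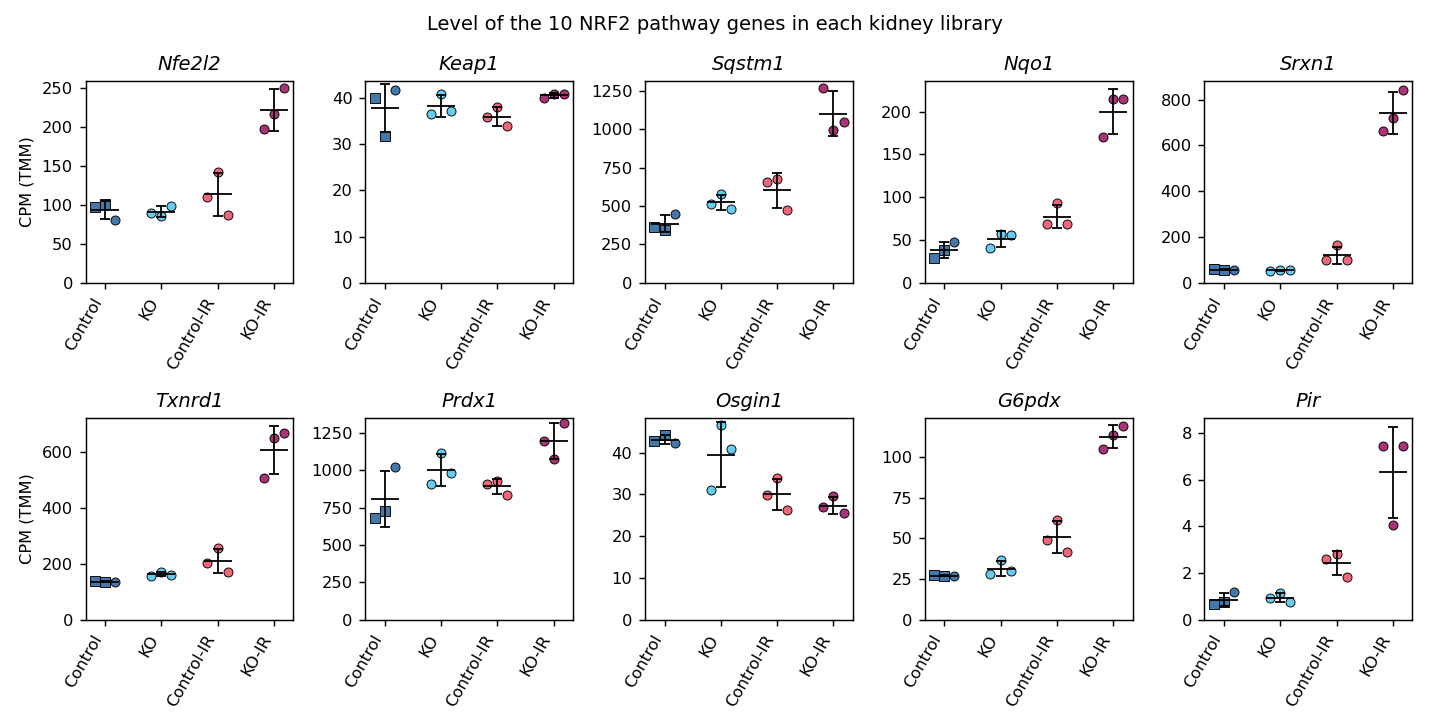
Level of each of the 10 genes in CPM (TMM normalized, linear axes from 0), 1 point per library, in the groups Control, KO, Control-IR and KO-IR. Horizontal bars are means, vertical bars SD (n = 3), and squares mark the 2 Control libraries that carry Xist. The 3 KO-IR libraries lie above all others for Nfe2l2, Sqstm1, Nqo1, Srxn1, Txnrd1, G6pdx and Pir, while Keap1 stays between 31.8 and 41.7 CPM throughout.

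After ischemia/reperfusion, KO kidneys held more mRNA than Control kidneys for 8 of the 10 genes, from 1.34-fold for Prdx1 to 6.12-fold for Srxn1 (adjusted p from 0.000228 to 0.0319, edgeR quasi-likelihood test). Of all 15281 genes tested in KO-IR against Control-IR, 46.9% were called at an adjusted p under 0.05 and 22.5% were called higher. In control mice, ischemia/reperfusion raised 6 genes (Pir, Srxn1, Nqo1, G6pdx, Sqstm1 and Txnrd1) by 1.55- to 2.85-fold and lowered Osgin1, beside 19.4% of 15567 tested genes called and 11.4% called higher. In KO mice it raised 7 genes, the former 6 and Nfe2l2, by 2.09- to 13.4-fold and again lowered Osgin1, beside 65.5% of 15155 genes called and 32.9% called higher. Without injury, no gene of the 10 was called between KO and Control, nor was any of the 15291 genes tested (0.00%). The median log2 fold change of the 10 genes was 0.64 in Control-IR against Control, 1.05 in KO-IR against Control-IR, 1.56 in KO-IR against KO and 0.18 in KO against Control, beside medians of -0.01, 0.00, 0.01 and -0.01 over all tested genes. Comparisons that name the same group share its libraries.

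**Figure D2:**
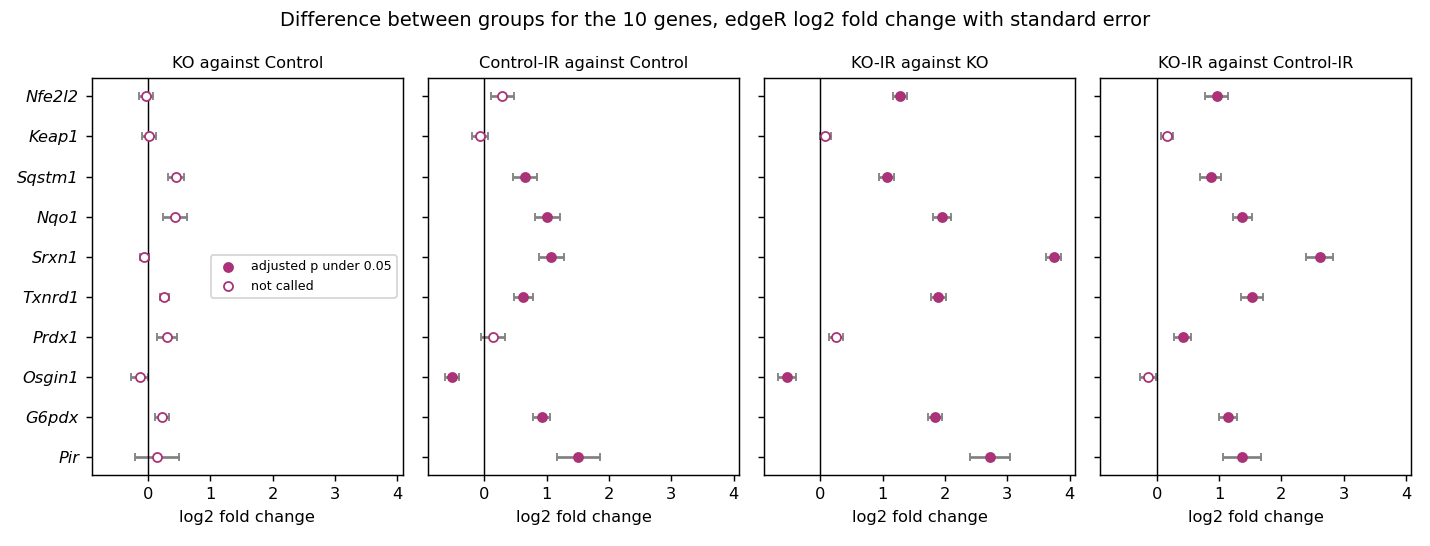
Log2 fold change of the 10 genes in 4 comparisons, fitted by edgeR, with bars of 1 standard error. Filled points passed an adjusted p under 0.05 and open points did not: none was filled in KO against Control, 7 in Control-IR against Control, 8 in KO-IR against KO and 8 in KO-IR against Control-IR, with Srxn1 farthest to the right after injury of KO kidneys.

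Nfe2l2 (ENSMUSG00000015839, chr2:75675513-75704641 of GRCm38, minus strand), the gene of NRF2 itself, stood at 97.6, 102 and 80.4 CPM in Control and at 89.1, 85.7 and 99.0 CPM in KO. After ischemia/reperfusion it stood at 111, 143 and 87.8 CPM in Control-IR and at 198, 217 and 251 CPM in KO-IR. The sham groups and Control-IR overlapped, and only KO-IR stood clear of them. The log2 fold change was 0.96 ± 0.18 (SE) in KO-IR against Control-IR (adjusted p = 0.00388) and 1.28 ± 0.11 in KO-IR against KO (adjusted p = 5.18e-06). In Control-IR against Control it was 0.29 ± 0.18, which did not pass (adjusted p = 0.277). The gene carried between 1390 and 4887 counts in a library, so the number of mice, not the depth, set the precision. In whole cortex, a change in the number of cells of a type and a change in mRNA per cell cannot be told apart, here and for all genes below.

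Keap1 (ENSMUSG00000003308, chr9:21229730-21239361, minus strand), the inhibitor that hands NRF2 to the ligase, varied little. It stood at 39.9, 31.8 and 41.7 CPM in Control, at 36.4, 40.8 and 37.3 in KO, at 35.9, 38.0 and 33.9 in Control-IR and at 40.0, 40.8 and 40.8 CPM in KO-IR. The KO-IR libraries lay above the Control-IR libraries, by 0.17 ± 0.09 on the log2 scale, without passing the test (adjusted p = 0.162). The sign of this difference was negative (-0.04) when libraries were scaled to their total counts in place of TMM, and the sign also depended on the scaling in Control-IR against Control and in KO against Control. An antisense gene, Gm16754, shares 510 exonic bases with Keap1, and with at most 17 counts in a library it could add little.

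Sqstm1 (ENSMUSG00000015837, chr11:50199366-50210827, minus strand) encodes p62, an autophagy receptor that binds KEAP1 and is itself a target of NRF2. It stood at 361, 345 and 446 CPM in Control and at 514, 577 and 482 CPM in KO, with no overlap. After ischemia/reperfusion it stood at 657, 678 and 472 CPM in Control-IR and at 1266, 992 and 1046 CPM in KO-IR. KO-IR was higher than Control-IR by 0.86 ± 0.18 on the log2 scale (adjusted p = 0.00544) and higher than KO by 1.06 ± 0.12 (adjusted p = 2.76e-05). Control-IR was higher than Control by 0.65 ± 0.19 (adjusted p = 0.0482), close to the threshold. Sqstm1 shares 580 exonic bases with Mrnip on the other strand, and whether the counting used strand is not given in the sources used here. Mrnip had 28 to 276 counts beside 5647 to 22307 for Sqstm1, and its mean in KO-IR was the lowest of the groups, at 2.37 CPM.

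Srxn1 (ENSMUSG00000032802, chr2:152105516-152111376, plus strand), which encodes sulfiredoxin, the enzyme that restores overoxidized peroxiredoxins, changed more than the other members after injury of KO kidneys. It was nearly constant without injury, at 58.4, 56.2 and 58.0 CPM in Control and at 52.2, 57.6 and 55.6 CPM in KO. It then stood at 99.5, 164 and 99.4 CPM in Control-IR and at 662, 720.1 and 842 CPM in KO-IR. No injured library overlapped a sham library, and every KO-IR library lay far above the highest Control-IR library. The rise was 2.11-fold in control mice (log2 1.08 ± 0.20, adjusted p = 0.0158) and 13.4-fold in KO mice (log2 3.74 ± 0.12, adjusted p = 2.66e-08). KO-IR exceeded Control-IR 6.12-fold (log2 2.61 ± 0.22, adjusted p = 0.000228), with 7748 to 16196 counts in the KO-IR libraries.

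Txnrd1 (ENSMUSG00000020250, chr10:82833951-82897712, plus strand) encodes the cytosolic thioredoxin reductase, which uses NADPH to reduce thioredoxin. It stood at 138, 134 and 135 CPM in Control, a spread of 2.01 CPM (SD), and at 157, 171 and 161 CPM in KO, with no overlap. It stood at 201, 256 and 171 CPM in Control-IR and at 508, 648 and 666 CPM in KO-IR. The 4 groups were thus ordered Control, KO, Control-IR, KO-IR by their means, with KO 2 and Control-IR 4 at nearly the same level, of 171 CPM. The rise over the sham group was 1.55-fold in control mice (log2 0.63 ± 0.15, adjusted p = 0.0319) and 3.71-fold in KO mice (log2 1.89 ± 0.12, adjusted p = 6.25e-07). KO-IR exceeded Control-IR by 1.53 ± 0.18 on the log2 scale (adjusted p = 0.000617).

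Prdx1 (ENSMUSG00000028691, chr4:116685544-116700822, plus strand), an abundant peroxiredoxin that breaks down hydrogen peroxide with electrons from thioredoxin, differed least of the 8 genes called between the injured groups. It stood at 678, 727 and 1022 CPM in Control, at 905, 1116 and 979 in KO, at 908, 927 and 837 in Control-IR and at 1194, 1075 and 1316 CPM in KO-IR. Control 3, the Control library without Xist, stood well above the other 2 Control libraries and within the range of KO. KO-IR lay above Control-IR with no overlap, by 0.42 ± 0.13 on the log2 scale (adjusted p = 0.0319). This call was lost without any 1 of Control-IR 1, Control-IR 4, KO-IR 2 or KO-IR 4 (adjusted p from 0.0672 to 0.115), with no low-count filter (log2 0.41, adjusted p = 0.0519) and with total count scaling (log2 0.21, adjusted p = 0.22). KO-IR and KO overlapped (log2 0.25 ± 0.11, adjusted p = 0.0749).

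Nqo1 (ENSMUSG00000003849, chr8:107388225-107403206, minus strand), the quinone reductase that is the usual readout of NRF2 activity, stood at 29.1, 38.6 and 47.3 CPM in Control and at 40.7, 57.6 and 56.4 CPM in KO. Control-IR stood at 69.2, 92.8 and 69.3 CPM and KO-IR at 170, 215 and 215 CPM. The sham groups overlapped, every injured library lay above them, and KO-IR lay above Control-IR. The log2 fold change was 1.01 ± 0.20 in Control-IR against Control (adjusted p = 0.0192), 1.95 ± 0.15 in KO-IR against KO (adjusted p = 2.06e-06) and 1.37 ± 0.15 in KO-IR against Control-IR (adjusted p = 0.000522). Likeness over the 12 libraries was taken among 14343 genes as the root mean square difference of centred log2 (CPM + 0.5). By this measure the genes nearest to Nqo1 were Fth1 (0.161), Pgd (0.221), G6pdx (0.222), Lrrc59 (0.223) and Nucb2 (0.228). For Srxn1 they were Prrg4 (0.221), Mt1 (0.223), Sh2d5 (0.243), Slc16a1 (0.278) and Il1r2 (0.299). Sh2d5 and Il1r2 were near 0 in the sham groups (means of 0.118 and 0.0389 CPM in KO). The added 0.5 damps their change, so their place here depends on it. Of these 10 neighbours, G6pdx is 1 of the 10 genes, and Fth1 and Pgd are on the list of other pathway genes.

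G6pdx (ENSMUSG00000031400, chrX:74409483-74429194, minus strand) encodes glucose-6-phosphate dehydrogenase, which opens the oxidative pentose phosphate pathway and makes NADPH. It was almost the same in the 3 Control libraries, at 27.3, 26.9 and 26.7 CPM, and stood at 28.0, 36.6 and 29.7 CPM in KO. It stood at 49.3, 61.3 and 41.9 CPM in Control-IR and at 105, 114 and 119 CPM in KO-IR, so that no injured library overlapped a sham library. KO-IR exceeded Control-IR 2.21-fold (log2 1.14 ± 0.14, adjusted p = 0.000742), and the rise over the sham group was 1.89-fold in control mice (adjusted p = 0.0106) and 3.57-fold in KO mice (adjusted p = 5.05e-07). G6pdx shares 418 exonic bases with Ikbkg on the other strand, and without strand the reads in that stretch cannot be assigned to 1 gene. Ikbkg had a mean of 50.1 CPM in Control, 50.8 in KO, 57.1 in Control-IR and 102 CPM in KO-IR. The near-identical copy G6pd2 had at most 1 count.

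Pir (ENSMUSG00000031379, chrX:164269371-164373011, plus strand) encodes pirin, an iron-binding nuclear protein. It was the scarcest member, with 12 to 21 counts in the sham libraries, so its values carry the largest counting error. It stood at 0.653, 0.733 and 1.16 CPM in Control, at 0.945, 1.13 and 0.735 in KO, at 2.59, 2.82 and 1.83 in Control-IR and at 7.44, 4.05 and 7.47 CPM in KO-IR. The sham groups overlapped, and the injured groups lay above them and apart from each other. The rise was 2.85-fold in control mice (log2 1.51 ± 0.34, adjusted p = 0.0273) and 6.58-fold in KO mice (log2 2.72 ± 0.32, adjusted p = 4.85e-05). KO-IR exceeded Control-IR by 1.36 ± 0.31 on the log2 scale (adjusted p = 0.0085).

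Osgin1 (ENSMUSG00000074063, chr8:119434124-119446256, plus strand), an oxidative stress induced growth inhibitor and an NRF2 target in other cells, went the other way. It stood at 42.9, 44.3 and 42.3 CPM in Control, at 31.1, 46.6 and 40.8 in KO, at 29.9, 33.8 and 26.3 in Control-IR and at 26.9, 29.6 and 25.5 CPM in KO-IR. KO 1 lay within the range of Control-IR, while every KO-IR library lay below every sham library. Osgin1 was lower in Control-IR than in Control by -0.52 ± 0.11 on the log2 scale (adjusted p = 0.0237) and lower in KO-IR than in KO by -0.54 ± 0.14 (adjusted p = 0.00726). The first of these calls was lost with total count scaling (log2 -0.40, adjusted p = 0.0705). Injured KO and control kidneys overlapped (log2 -0.14 ± 0.12, adjusted p = 0.376).

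The calls in Control-IR against Control depended on single libraries, for these genes as for all genes, of which 3019 were called with all 6 libraries. Without Control 1, and likewise without Control 2, none of the 10 genes passed, at adjusted p from 0.0503 to 0.149 for the 7 that had been called, and the count over all genes was 379 and 413. The log2 fold changes of the 7 genes stayed close to those of all 6 libraries. Pir (1.35 without Control 1 and 1.43 without Control 2, against 1.51) and Nqo1 (0.86 and 1.03, against 1.01) moved farthest. The direction of these 7 was the same in every set of 5 libraries. Without Control-IR 1, 2 genes passed (Srxn1 and G6pdx), and 833 of all genes. The fit to all 12 libraries called 7 of the 10 genes and 4938 of all genes, and the same fit with sex as a covariate called 2 (Srxn1 and G6pdx) and 2029. With that covariate the Control level rests on Control 3 alone and the spread comes from the other groups and from Control 1 and 2, so it is no check on how Control 3 itself varies. The 8 calls in KO-IR against Control-IR, in which no library carried Xist, changed only for Prdx1 when libraries were left out 1 at a time.

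In Control-IR, all 10 genes had their highest level in library 2, which was the highest of the 3 for 41.1% of 14343 genes. The same library had the highest level of Havcr1, which encodes kidney injury molecule 1, at 2105 CPM beside 785 and 381 CPM in Control-IR 1 and 4. It also had the lowest level of Slc34a1, the phosphate transporter of the proximal tubule brush border, at 808 CPM beside 2279 and 2850 CPM. In KO, 9 of the 10 genes were highest in library 2, beside 38.8% of all genes, and in KO-IR 7 were highest in library 4, beside 31.7%. In Control the 10 genes were spread over the libraries, with 3, 2 and 5 highest in libraries 1, 2 and 3, beside 31.6%, 30.7% and 37.6% of all genes.

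Whether the response to injury differed between the genotypes was tested as an interaction over all 12 libraries, which called 30.6% of 16168 genes and called 14.3% higher, that is, with the larger value in KO mice. Of the 10 genes, 5 were called, all with a larger rise in KO mice. The log2 response was larger by 2.68 ± 0.25 for Srxn1 (adjusted p = 5.03e-05), by 1.28 ± 0.20 for Txnrd1 (adjusted p = 0.000962), by 0.995 ± 0.23 for Nfe2l2 (adjusted p = 0.00726), by 0.95 ± 0.27 for Nqo1 (adjusted p = 0.0208) and by 0.93 ± 0.19 for G6pdx (adjusted p = 0.00393). Pir had a like size with a wider error (1.22 ± 0.48, adjusted p = 0.0718) and did not pass. Sqstm1 (0.42 ± 0.23), Keap1 (0.16 ± 0.14), Prdx1 (0.12 ± 0.22) and Osgin1 (-0.01 ± 0.19) did not pass either. With sex as a covariate, the value for Nfe2l2 was 0.78 and no longer passed (adjusted p = 0.0575). The value for Nqo1 did not pass without KO 1, Control-IR 1 or KO-IR 4 (adjusted p from 0.0503 to 0.0528), and that for Pir passed without KO-IR 3 (1.47, adjusted p = 0.0331).

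In KO against Control, without injury, the largest differences of the 10 genes were those of Sqstm1 (log2 0.45 ± 0.12), Nqo1 (0.43 ± 0.19), Prdx1 (0.30 ± 0.17), Txnrd1 (0.26 ± 0.07) and G6pdx (0.22 ± 0.11). None passed after adjustment (adjusted p from 0.207 to 0.379). In the edgeR test, 2 of the 10 genes (Sqstm1 and Txnrd1) had an unadjusted p under 0.05, as had 16.8% of all tested genes. The libraries did not overlap for Sqstm1, Txnrd1 and G6pdx, 3 of 10 genes, beside 21.0% of all genes. DESeq2 called Sqstm1 (log2 0.46, adjusted p = 0.0258), 1 gene of the 10, and 458 (3.0%) of all genes. Without Control 3, Sqstm1 (log2 0.57, adjusted p = 0.00701) and Prdx1 (log2 0.51, adjusted p = 0.0169) passed in edgeR, as did 1930 of all genes, in a comparison that then set 2 Xist-carrying libraries against 3 KO libraries without Xist. The part of sex in these differences cannot be told apart from that of the genotype in this subset, and Control 3 stood above Control 1 and 2 for Sqstm1, Prdx1, Nqo1, Keap1 and Pir.

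The rest of the pathway was followed in 47 further genes in 7 classes, of which 46 could be tested (45 in KO against Control). In KO-IR against Control-IR, 23 were higher and 3 lower, with a median log2 fold change of 0.37 over the list, beside 46.9% of all genes called and 22.5% called higher. In Control-IR against Control, 13 were higher and 3 lower (median 0.19), beside 19.4% of all genes called and 11.4% called higher. In KO-IR against KO, 27 were higher and 8 lower (median 0.51), beside 65.5% called and 32.9% called higher. In KO against Control edgeR called none (DESeq2 called 5), and 13 of 45 had an unadjusted p under 0.05 (median 0.16), beside 16.8% of all genes. The counts by class that follow are small and are to be read beside these same shares. In control mice, 3 genes of the list were called without Control 1, 2 without Control 2, 5 without Control-IR 1 and 7 without Control-IR 2, where 379, 413, 833 and 1635 of all genes were called.

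**Figure D3:**
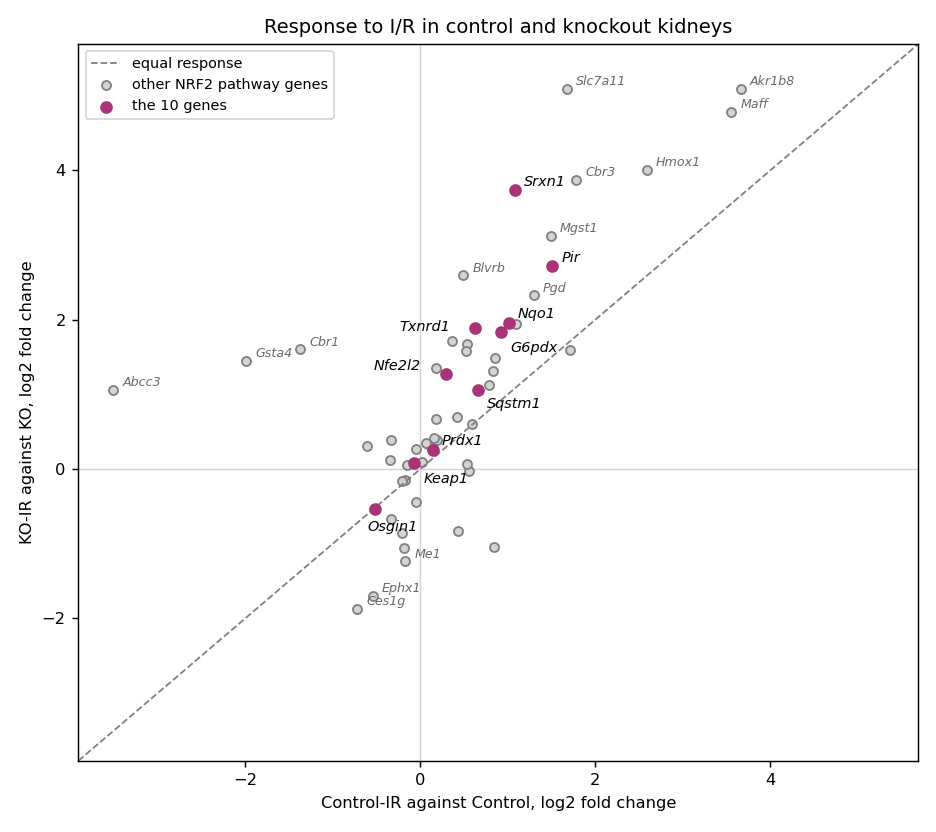
Response to ischemia/reperfusion in control mice (x axis) and in KO mice (y axis), as edgeR log2 fold changes from separate sets of 6 libraries, for the 10 genes (dark) and the 46 other pathway genes that could be tested (grey). The dashed line marks equal responses. Srxn1, Txnrd1, Nqo1, G6pdx, Nfe2l2 and Pir lie above it, Keap1, Prdx1 and Osgin1 near it, and Abcc3, Cbr1 and Gsta4, which were high in the 2 Control libraries that carry Xist, stand apart at the left.

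Among regulators and partners (11 genes), 7 were higher in KO-IR than in Control-IR and none lower, where 22.5% of all genes were called higher. Maff, which encodes a small MAF protein of the kind that pairs with NRF2, stood at 0.794 to 1.61 CPM in Control, 6.44 to 24.5 CPM in Control-IR and 47.1 to 70.2 CPM in KO-IR. It rose by 3.56 ± 0.52 on the log2 scale in control mice (adjusted p = 0.00959) and by 4.79 ± 0.24 in KO mice (adjusted p = 1.56e-07), and differed by 2.01 ± 0.40 between the injured groups (adjusted p = 0.00502). It was the 1 gene of 3 called in its class that was higher in Control-IR, where Mafg and Btrc were lower. Mafk and Mafg, its relatives, were higher in KO-IR than in Control-IR by 1.51 and 0.58. The repressor Bach1, which competes for the same elements, was not called in any comparison, with log2 0.16 ± 0.13 between the injured groups. Btrc, a subunit of a second ligase that targets NRF2, was lower in KO-IR than in KO by -0.67 ± 0.12 (adjusted p = 0.000881).

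Of the 11 glutathione genes that could be tested, 5 were higher in KO-IR than in Control-IR and none was lower, beside the 46.9% of all genes called. Slc7a11, the cystine importer xCT that feeds glutathione synthesis, had 0.251 to 0.609 CPM in both sham groups, 0.695 to 2.24 CPM in Control-IR and 3.93, 21.9 and 12.8 CPM in KO-IR. Its sham libraries held only 5 to 11 counts in Control and 4 to 9 in KO. KO-IR exceeded Control-IR by 3.17 ± 0.63 on the log2 scale (adjusted p = 0.00508) and KO by 5.09 ± 0.65 (adjusted p = 7.74e-05), with a wide spread among the KO-IR libraries. Gsr, the glutathione reductase, rose by 1.60 ± 0.16 and the glutathione transferase Mgst1 by 1.30 ± 0.15 in KO-IR over Control-IR. Gclc and Gclm, the 2 subunits of the enzyme that limits glutathione synthesis, differed by 0.43 ± 0.19 and 0.41 ± 0.18, which did not pass (adjusted p = 0.095 and 0.089). Gsta4, a glutathione transferase, was lower in Control-IR than in Control by -1.99 ± 0.51 (adjusted p = 0.0374) and higher in KO-IR than in KO by 1.45 ± 0.11. The first of these calls was lost without any 1 of Control 1, Control 2 or the Control-IR libraries (adjusted p from 0.0656 to 0.116), and with sex as a covariate the value was -0.36. In KO-IR against KO, Gss (glutathione synthetase) and Ggt1 (gamma-glutamyltransferase) were lower, by -0.85 and -1.05, against 7 genes of the class that were higher. The Cre in the KO mice is driven by Ggt1 regulatory sequence, and its own mRNA was not counted apart.

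Of the 5 NADPH genes, Taldo1 and Pgd, which act in the pentose phosphate pathway with G6pdx, were higher in KO-IR than in Control-IR, by 1.52 ± 0.18 and 1.29 ± 0.23. Malic enzyme, Me1, was lower by -0.30 ± 0.10 (adjusted p = 0.0405), a call that was lost without any 1 of Control-IR 1, Control-IR 4, KO-IR 2, KO-IR 3 or KO-IR 4 (adjusted p from 0.0682 to 0.135), in the fit to all 12 libraries (adjusted p = 0.319) and with no low-count filter (adjusted p = 0.0841), and lower in KO-IR than in KO by -1.23 ± 0.09 (adjusted p = 1.59e-06). Me1 stood at 265 and 272 CPM in Control 1 and 2 and at 574 CPM in Control 3, close to the KO libraries. Thioredoxin itself, Txn1, was higher in KO-IR by 0.64 ± 0.14 (adjusted p = 0.00686).

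Of the 9 genes of quinone, carbonyl and drug metabolism, 5 were higher and 1 lower in KO-IR than in Control-IR, beside 46.9% of all genes called. Akr1b8, an aldo-keto reductase, stood at 1.05 to 2.01 CPM in Control, 7.39 to 33.0 CPM in Control-IR and 56.4 to 80.9 CPM in KO-IR. It rose by 3.66 ± 0.56 in control mice (adjusted p = 0.0103; 0.0528 without Control 2) and by 5.09 ± 0.23 in KO mice (adjusted p = 8.54e-08). Ephx1, the microsomal epoxide hydrolase, was lower in KO-IR than in Control-IR by -1.02 ± 0.15 (adjusted p = 0.00134) and than in KO by -1.70 ± 0.12. Akr1b3 and Ces1g were lower in KO-IR than in KO as well, by -0.84 and -1.87.

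Of the 5 heme and iron genes, 4 were higher in Control-IR than in Control, where 11.4% of all genes were called higher. Hmox1, which degrades heme, stood at 18.3 to 26.2 CPM in Control, 54.1 to 187 CPM in Control-IR and 260 to 610 CPM in KO-IR, a rise of 2.59 ± 0.43 in control mice (adjusted p = 0.0125) and of 4.01 ± 0.30 in KO mice (adjusted p = 1.9e-06). The first of these calls was lost without Control 1 and without Control 2 (adjusted p = 0.0594 in both). Blvrb, a biliverdin reductase, stood at 13.6 to 14.1 CPM in Control-IR and at 61.6, 47.6 and 70.5 CPM in KO-IR (log2 2.11 ± 0.16, adjusted p = 0.000173). Slc40a1, the iron exporter ferroportin, was lower in KO-IR than in Control-IR by -0.77 ± 0.19 (adjusted p = 0.0121), but not without KO-IR 4 (-0.63, adjusted p = 0.0526). None of the 4 efflux transporters was called between the injured groups.

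The interaction called 21 of the 46 pathway genes, 17 with a positive value (a log2 change after injury that was higher in KO than in control mice) and 4 with a negative one, beside 30.6% of all genes called and 14.3% called positive. The sign does not give the size of a response. Of the 4 with the largest values, Slc7a11 had 3.41 on the log2 scale (adjusted p = 0.0231), a call that was lost without Control 2, Control 3, KO 1 or KO 2 (adjusted p from 0.051 to 0.068) and with sex as a covariate (adjusted p = 0.0569). With 5 to 11 counts in Control and 4 to 9 in KO, the value for Slc7a11 carries a large counting error. Abcc3 (4.61 ± 1.42), Gsta4 (3.46 ± 0.57) and Cbr1 (2.99 ± 0.66) were the other 3, and each was far higher in Control 1 and 2 than in Control 3. Abcc3 stood at 141 and 101 CPM beside 1.55 CPM, Gsta4 at 98.4 and 127 beside 27.2 CPM, and Cbr1 at 253 and 228 beside 41.3 CPM. The log2 change of Abcc3 was -3.51 in control mice, which did not pass (adjusted p = 0.0706), and 1.06 in KO mice (adjusted p = 0.0229). With sex as a covariate the value for Abcc3 was -1.09, that for Gsta4 1.82 and that for Cbr1 0.92. Ephx1 (-1.14), Akr1b3 (-1.26), Me1 (-1.05) and Ggt1 (-0.86) were the 4 with a negative value. In KO mice all 4 fell, with log2 changes of -1.70 for Ephx1, -1.23 for Me1, -1.05 for Ggt1 and -0.84 for Akr1b3, whereas in control mice the values in the same order were -0.55, -0.17, -0.19 and 0.43 and did not pass. Of these, Ephx1 alone also passed with sex as a covariate. The call of Me1 was lost without any 1 of 10 libraries (all but Control 3 and Control-IR 2) and that of Ggt1 without any 1 of 7, while the call of Abcc3 was lost without any 1 of 8.

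Markers of injury and of cell types moved with these groups. The summed level of 4 injured tubule markers (Havcr1, Lcn2, Krt20 and Vcam1) was 12.2 to 22.2 CPM in Control, 8.66 to 12.4 CPM in KO, 566 to 2649 CPM in Control-IR and 4803 to 6316 CPM in KO-IR. Of the 4, 3 were higher in KO-IR than in Control-IR and Vcam1 was lower. The 8 proximal tubule markers summed to 13491 to 14289 CPM in Control, 12854 to 14568 CPM in KO, 3862 to 9151 CPM in Control-IR and 2232 to 2822 CPM in KO-IR, and 6 of the 8 were lower in KO-IR than in Control-IR. The 5 neutrophil markers summed to 0.733 to 1.66 CPM in Control and 0.613 to 1.83 CPM in KO, with Ly6g at 0 in both, and to 6.57 to 30.04 CPM in Control-IR and 50.3 to 77.5 CPM in KO-IR. The 6 macrophage and monocyte markers summed to 80.3 to 96.1 CPM in Control, 81.4 to 84.3 CPM in KO, 120 to 233 CPM in Control-IR and 48.4 to 58.5 CPM in KO-IR, where 5 of the 6 were lower than in Control-IR and Cd68 was higher. The 3 endothelial markers ranged from 196 to 231 CPM in the first 3 groups and from 270 to 287 CPM in KO-IR. The 4 markers of the thick ascending limb and distal tubule summed to 5673 to 7594 CPM in Control, 5563 to 6385 CPM in KO, 1658 to 4126 CPM in Control-IR and 2216 to 2670 CPM in KO-IR. The 3 collecting duct markers summed to 231 to 287 CPM in Control, 209 to 301 CPM in KO, 64.9 to 226 CPM in Control-IR and 77.2 to 133 CPM in KO-IR. For both sums the KO-IR range lay within that of Control-IR. Of the distal markers, 2 of 4 were lower in KO-IR than in Control-IR, Slc12a1 by -3.40 (adjusted p = 0.00824) and Slc12a3 by -0.63 (adjusted p = 0.0415), while none of the 3 collecting duct markers was called. The part of cell composition and of the degree of injury in the differences of the NRF2 genes was not tested.

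**Figure D4:**
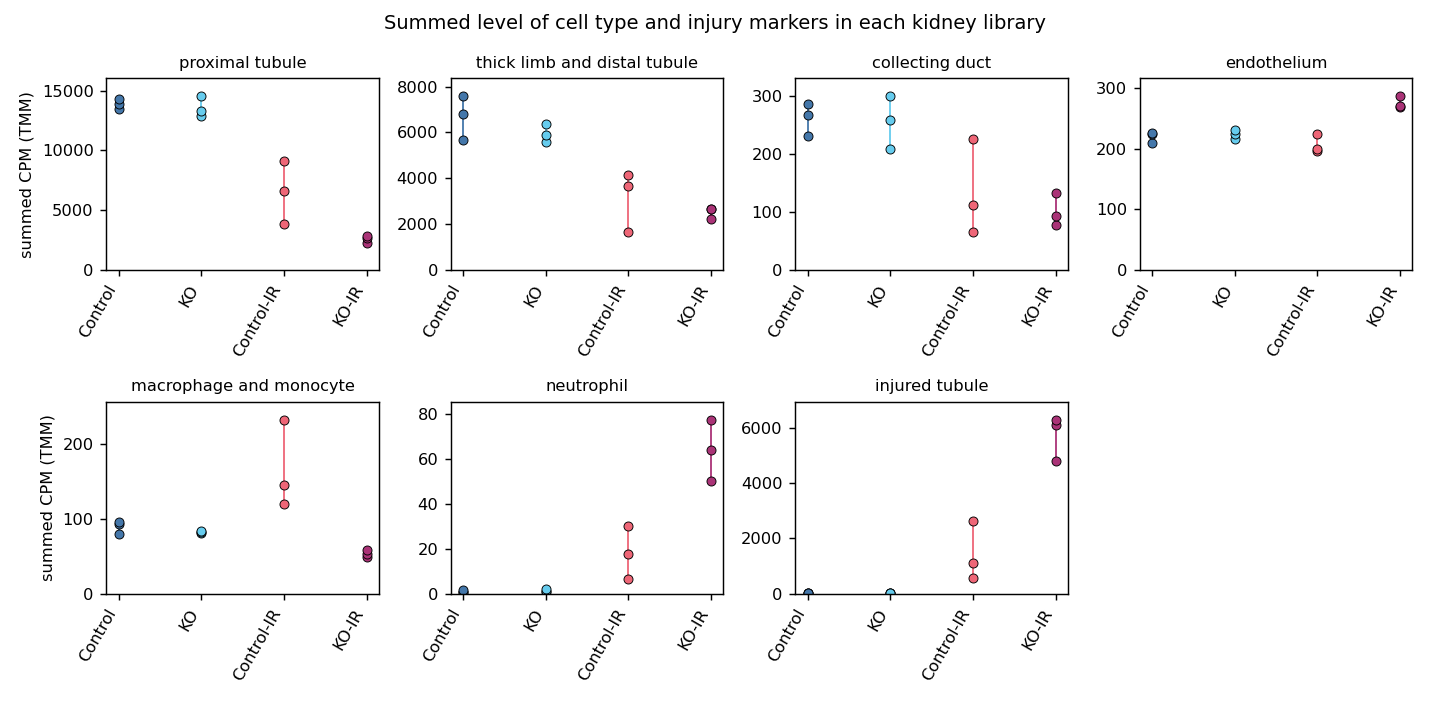
Summed level of 7 marker lists in CPM (linear axes from 0), 1 point per library with a line joining the lowest and highest of each group. Injured tubule and neutrophil markers are highest in KO-IR, proximal tubule markers lowest there, and macrophage and monocyte markers highest in Control-IR.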

How the data were processed

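The authors extracted RNA from kidney cortex (the labels name both TRIzol and a column kit) and sequenced it on an Illumina HiSeq X instrument. They deposited 1 table of raw counts per Ensembl gene for 12 libraries, neither normalized nor filtered. The submitters' processing notes name HISAT2 2.0.4 and mm10, while the counting program, its annotation and its use of strand are not given in the sources used here. Positions, exonic lengths and symbols came from GENCODE M21 (GRCm38), and 55141 of the 55487 identifiers had a symbol. Promoter sequences came from RefSeq (GRCm38.p6), and all 10 genes matched.

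After removal of low counts (filterByExpr), TMM factors were computed and quasi-likelihood models fitted with edgeR 4.0.16 (R 4.3.3). Each comparison used its own 6 libraries and the interaction all 12. A gene was called where its p, adjusted over all tested genes by the Benjamini-Hochberg method, was under 0.05. Levels are CPM. Each standard error is the log2 fold change divided by the square root of F. With 3 libraries against 3, no exact permutation test (two-sided) can go below p = 0.1, so none was run for single genes. Alternatives were DESeq2 1.42.0, total count normalization, DESeq2 size factors in edgeR, no low-count filter, a fit to all 12 libraries, sex as a covariate in that fit, the replicate number as a block, and leaving out each library in turn. The tests were first tested on simulated counts.

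The 10 genes, the pathway list and the marker lists were chosen with earlier results of these data known. Of the pathway list, the text names in each comparison up to 4 called genes with the largest absolute log2 fold change and each called gene opposite to most called genes of its class. Mafk, Mafg, Bach1, Gsr, Mgst1, Gclc, Gclm, Taldo1, Pgd and Txn1 were named after their values were seen, for their known roles. Squared differences between pairs of libraries in a group were 9.65 to 80.9 times those from counting error alone, so none was the same library sequenced again. This does not show that the libraries came from separate mice. Where a library was left out, the fit pooled the spread of the remaining 5 libraries (11 for the interaction).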

Additional observations from a re-analysis of the deposited data

Results flagged for a closer look

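For 5 of the 10 genes the response to ischemia/reperfusion differed between KO and control mice in a test of the difference itself, the interaction over all 12 libraries in edgeR. The log2 response in KO mice minus that in control mice was 2.675 for Srxn1, 1.275 for Txnrd1, 0.995 for Nfe2l2, 0.947 for Nqo1 and 0.927 for G6pdx. Of all 16168 genes tested, 30.6% were called in this test, so a call as such is common in these data. Srxn1, Txnrd1 and G6pdx passed under all 18 alternatives tried for each, with adjusted p of at most 0.0023, 0.0179 and 0.0302. No group had the 4 or more samples that a check for single outlying libraries needs.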

How the results depend on the processing

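In KO-IR against KO and KO-IR against Control-IR, Nqo1, Srxn1, Txnrd1, G6pdx and Pir kept their direction and their call under all 13 alternatives run in each. Over the 10 genes, the direction and side of the threshold were kept in 127 of 130 results for KO-IR against KO, 120 of 130 for KO-IR against Control-IR, 98 of 130 for Control-IR against Control, 111 of 129 for KO against Control and 164 of 180 for the interaction, and no cause of the other results was tested. The number of the 10 genes called in Control-IR against Control was 7, also in the fit to all 12 libraries, and 2 when sex was added to that fit, and ranged from 0 to 7 without single libraries, with 2 to 16 on the pathway list (16 in all libraries). In KO against Control the 10 genes gave 1 call in DESeq2 and 0 to 2 without single libraries, and the pathway list 5 in DESeq2, 4 with no low-count filter and 0 to 15 without single libraries. In the interaction the pathway list gave 12 calls with sex as a covariate in place of 21. Nothing states that replicate numbers marked a shared litter, batch or day, and they were not taken as pairs in the main fit. Residuals of the 12 pairs with the same number correlated at -0.188 to 0.184 (median -0.022). With the replicate block, KO-IR against Control-IR gave 5 calls among the 10 genes in place of 8 (Nfe2l2, Prdx1 and Sqstm1 lost) and 7 on the pathway list in place of 26. With it, KO against Control gave 3 (Nqo1, Prdx1 and Sqstm1) and 13 in place of 0. In such a fit, a library whose number no other library shared did not enter the difference. KO-IR against Control-IR then rested on libraries 2 and 4 of each group. KO against Control rested on libraries 1 and 2 of each group, which sets Xist-carrying Control libraries against KO libraries without Xist. The part of sex there cannot be told apart from that of the genotype. Both differences thus used fewer libraries than the main fit. The block also ended the interaction calls of Nqo1 (0.65, adjusted p = 0.0773) and Slc7a11 (2.40, adjusted p = 0.159) and, in KO-IR against Control-IR, those of Me1, Slc40a1, Slc7a11, Akr1b8 and Maff. Over all genes, calls in KO-IR against Control-IR went from 7169 to 1683 with the block, those in the interaction from 4953 to 3215 with the block and 3233 with sex, and those in KO against Control from 0 to 458 in DESeq2, 388 with no low-count filter, 1 with total counts, 1378 with the block and 0 to 1930 without single libraries. Those in Control-IR against Control went from 3019 to 4938 in the fit to all 12 libraries and to 379 without Control 1. Total count scaling moved the median of all genes by up to 0.21 on the log2 scale (to -0.21 in KO-IR against Control-IR) and changed the split of higher to lower calls from 1778 and 1241 to 2346 and 766 in Control-IR against Control, from 3444 and 3725 to 1978 and 5080 in KO-IR against Control-IR, and from 2305 and 2648 to 1591 and 2997 in the interaction. Signs were compared for the 10 genes and, of the pathway list, only for the genes named by rule in a comparison, which were none in KO against Control. Among these, values that changed sign were all uncalled ones of the 10 genes, apart from Abcc3 in the interaction (-1.09 with sex as a covariate in place of 4.61). The other pathway genes were not compared in this way. With total counts these were Keap1 in Control-IR against Control (0.0546), KO-IR against Control-IR (-0.0387) and KO against Control (-0.11). With sex as a covariate they were Prdx1 in Control-IR against Control (-0.20) and, in KO against Control, Nfe2l2 (0.18), Keap1 (-0.13), Prdx1 (-0.0307) and Pir (-0.30). With the replicate block they were Keap1 in Control-IR against Control (0.0594) and Prdx1 in the interaction (-0.0398), and with DESeq2 or its size factors Osgin1 in the interaction (0.0002 and 0.0004). Without single libraries, Keap1 ranged from -0.17 to 0.0192 in Control-IR against Control and, in KO against Control, Nfe2l2 from -0.13 to 0.0366, Keap1 from -0.0961 to 0.0881, Osgin1 from -0.26 to 0.0193 and Pir from -0.0226 to 0.44. In the interaction, Prdx1 ranged from -0.0872 to 0.23 and Osgin1 from -0.15 to 0.13.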
